A study of Mus musculus with 9 samples.

Results

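The H3K9ac peaks of mouse lung endothelial cells are 47600 regions on the chromosomes of GRCm38 and 1343 on contigs and the mitochondrial sequence, of 1309635 regions in 8 peak lists. They were taken from 1 deposited count table in which the lists of 8 histone marks share identifiers, as the shortest of the 8 lists, in which no region is narrower than 204 bp. Scaled to library totals, the H3K9ac library had denser reads in this list than any other library, which is the reason it is called the H3K9ac list here. The reads behind it come from 1 H3K9ac library and were set against 1 IgG library, of 9 libraries in the series. Lung endothelial cells of wild-type (WT) mice were profiled by ACT-seq. This assay couples Tn5 transposase, through Protein A/G, to an antibody against a mark, and in permeabilised nuclei the enzyme inserts sequencing adapters next to nucleosomes that the antibody binds. All 9 libraries share this genotype and cell type, and the IgG library stands for the same reaction with an antibody against no mark. The title of the series places the profiles in a study of cystine import, its oxidative breakdown and histone acetylation at endothelial loci. There is no treated, mutant or repeat library, so no value below has a replicate error and no p-value is given. Intervals in the text are 95% intervals that cover counting error only.

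Acetylation of lysine 9 on histone H3 is a mark of active promoters. In mammals it is written mainly by the acetyltransferases GCN5 (Kat2a) and PCAF (Kat2b), which work inside the SAGA and ATAC complexes, and it is removed by class I histone deacetylases and by sirtuins such as SIRT6. Its acetyl group comes from acetyl-CoA, and proteins with a YEATS domain or a bromodomain bind it.

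4 start sites show what the H3K9ac peaks do and do not cover. Each sequence is the RefSeq window of GRCm38.p6 from 250 bases before to 50 bases after an annotated start, read in the direction of transcription, with CpG dinucleotides in capitals. Kdr (chr5:75978406-75978705, minus strand) encodes the VEGF receptor 2 of endothelial cells, and H3K9ac peaks covered 189 of its 300 bases. Slc7a11 (chr3:50443564-50443863, minus strand) encodes the cystine transporter xCT, and H3K9ac peaks covered 263 bases of a window with 4 CpG. Hoxd13 (chr2:74667975-74668274, plus strand), a transcription factor of distal limb patterning, had 0 covered bases in a window with 37 CpG. Sftpa1 (chr14:41131538-41131837, plus strand), the surfactant protein A1 of alveolar epithelium, had 0 covered bases in a window with 5 CpG.
Kdr: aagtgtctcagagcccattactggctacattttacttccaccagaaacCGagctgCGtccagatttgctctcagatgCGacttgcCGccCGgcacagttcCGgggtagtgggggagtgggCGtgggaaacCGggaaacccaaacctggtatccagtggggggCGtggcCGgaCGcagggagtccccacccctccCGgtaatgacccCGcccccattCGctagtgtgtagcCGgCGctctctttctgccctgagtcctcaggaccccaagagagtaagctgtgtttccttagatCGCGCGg
Slc7a11: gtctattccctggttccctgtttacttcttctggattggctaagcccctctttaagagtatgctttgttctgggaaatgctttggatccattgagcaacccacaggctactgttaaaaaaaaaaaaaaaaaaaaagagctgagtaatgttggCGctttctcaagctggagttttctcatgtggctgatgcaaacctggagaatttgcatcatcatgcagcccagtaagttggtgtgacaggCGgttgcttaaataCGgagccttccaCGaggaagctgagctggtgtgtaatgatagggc
Hoxd13: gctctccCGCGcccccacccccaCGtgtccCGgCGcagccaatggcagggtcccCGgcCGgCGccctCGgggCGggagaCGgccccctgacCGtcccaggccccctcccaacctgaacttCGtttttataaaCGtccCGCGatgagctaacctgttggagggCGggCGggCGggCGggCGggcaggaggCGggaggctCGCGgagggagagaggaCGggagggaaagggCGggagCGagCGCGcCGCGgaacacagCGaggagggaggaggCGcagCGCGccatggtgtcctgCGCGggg
Sftpa1: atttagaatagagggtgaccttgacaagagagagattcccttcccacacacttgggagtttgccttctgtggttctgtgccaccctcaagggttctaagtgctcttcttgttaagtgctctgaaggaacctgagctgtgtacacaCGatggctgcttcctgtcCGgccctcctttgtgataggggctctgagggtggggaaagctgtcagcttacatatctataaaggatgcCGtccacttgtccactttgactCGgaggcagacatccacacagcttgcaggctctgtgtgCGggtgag
The Kdr and Hoxd13 windows are CpG-rich, and the Slc7a11 and Sftpa1 windows CpG-poor. Most CpG-rich starts carried H3K9ac and most CpG-poor starts did not, and Slc7a11 and Hoxd13 are exceptions in opposite directions.

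The H3K9ac library had 1628294 reads in the table, and the IgG library had 365999. H3K9ac reads lay in 26381 of the 578465 identifiers, which is 4.56%, and 92.5% of the reads lay in identifiers that hold an H3K9ac peak. These identifiers held between 9.36% (H3K14ac) and 71.5% (H3K4me3) of the reads of the other 7 marks, and 38.7% of the IgG reads. IgG reads lay in 903 identifiers. Of them, 74.2% fell in the 100 highest identifiers and 13.5% in the identifiers of the mitochondrial sequence. A count of 0 in the IgG library allows up to 3 reads, or 8.20 CPM, which are reads scaled to the library's total in the table. Every identifier that holds an H3K9ac peak also holds 1 region from each of the other 7 lists, at unrelated places, so its reads are a sum over 8 places. Reads over several identifiers were discarded, so an H3K9ac peak can add reads only from bases that no region of another identifier covers, called unshared bases here.

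In the identifiers with at least 10 reads over both libraries, H3K9ac was at least 2-fold over IgG in 17510 of 17969 (97.4%). It was at least 2-fold under IgG in 423 (2.35%). Among identifiers that hold an H3K9ac peak, 15057 of 15220 were higher in H3K9ac (98.9%) and 135 were lower (0.887%). Among identifiers that hold none, 2453 of 2749 were higher in H3K9ac (89.2%) and 288 were lower (10.5%). IgG had 0 reads in 17452 of the 17969 identifiers. The ratio is therefore set mostly by the H3K9ac reads and by the added prior count, and nearly every identifier with enough reads passes it, with or without an H3K9ac peak.

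H3K9ac reads lay mostly where the H3K9ac peak had unshared bases. The list is called after the library whose reads are densest in its unshared bases, so the following values describe that choice and do not support it. In 9869 identifiers the H3K9ac peak was wholly unshared, and 94.0% of them had H3K9ac reads, with a median of 82 reads and quartiles of 30 and 164. In 22236 identifiers the H3K9ac peak had no unshared base, and 13.4% of them had H3K9ac reads. Of the tested identifiers with a wholly unshared peak, 9002 of 9042 were at least 2-fold over IgG (99.6%), and 28 were at least 2-fold under it (0.31%). IgG had reads in 63 of the 9869.

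Among identifiers whose regions all lie on chromosomes, H3K9ac averaged 66.0 CPM in the 8238 with a wholly unshared H3K9ac peak and 2.02 CPM in the 18626 without an unshared base, a ratio of 32.7. The same ratio was 1.92 in the IgG library and between 1.03 (H3K23ac) and 1.42 (H3K27ac) in the other 7 marks. Mean H3K9ac reads per identifier were 3.29 with no unshared base, 17.1 with 50 to 99 unshared bases, 54.6 with 150 to 204, 104 with 205, which is a whole 204-bp peak as counted, and 283 with 300 or more. Per kb of unshared bases, a fit over all identifiers with every region on chromosomes gave 285 H3K9ac CPM in the H3K9ac list. It gave 8.93 in the H3K4me3 list and at most 0.204 in any other list. IgG had 16.9 CPM per kb in the H3K9ac list. In the 8238 identifiers a direct count, without a fit, divided all reads of an identifier by the kb of its H3K9ac peak. It thus includes reads from the regions of the other 7 lists. By this count H3K9ac had 319 CPM per kb (319 to 320), H3K4me3 75.8, H2AK5ac 70.9 and IgG 43.0. IgG had reads in 0.655% of these identifiers.

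**Figure D1:**
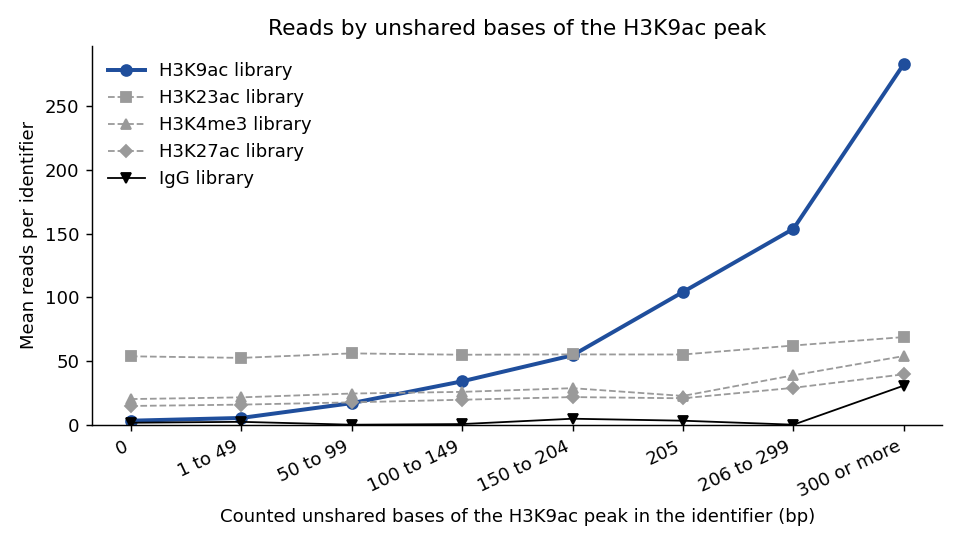
Mean reads per identifier (y axis, linear) in 5 libraries by the number of counted unshared bases of the H3K9ac peak in that identifier (x axis, classes in bp), for identifiers whose regions all lie on chromosomes, with 1 library per line and no error bars. The H3K9ac line runs from 3.29 reads at no unshared base to 283 at 300 or more, where the IgG mean of 30.8 is over 138 identifiers.

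Not every wholly unshared H3K9ac peak held reads. On contigs and the mitochondrial sequence, 234 of 253 such peaks (92.5%) had 0 H3K9ac reads. On the chromosomes, 175 stretches of 79.6 Mb in all were set from the H3K14ac library alone, as runs of at least 10 wholly unshared H3K14ac peaks with at most 2 H3K14ac reads each. Inside them 96 of 113 wholly unshared H3K9ac peaks had 0 H3K9ac reads (85.0%), and outside them 258 of 9503 did (2.71%), with medians of 0 and 86 reads. Erg, an endothelial ETS factor, touches such a stretch and has 4 wholly unshared peaks. Those at chr16:95442071-95442274, chr16:95445046-95445249 and chr16:95453615-95453818 had 0, 2 and 0 H3K9ac reads, and the one at chr16:95569098-95569301 had 52. So do 11 other genes of the lists used below, among them Cldn5 and Txnrd2, which have no peak at their ends. A count of 0 in these stretches therefore says nothing about H3K9ac at a gene there, and the peak list still has peaks in them. What sets these stretches apart was not tested.

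H3K9ac peaks were concentrated at gene starts. Of the 45979 peaks on chromosomes with entries in the RefSeq start table, 28.0% (27.6 to 28.4%) lay within 1 kb of an annotated start, against 2.12% of the genome, a ratio of 13.2. A further 50.4% lay inside genes away from starts, against 44.3% of the genome, and 21.6% lay outside genes, against 53.6%. The share near starts was 25.7% for H3K4me3 peaks, 17.5% for H3K23ac, 15.8% for H3K27ac and 5.21% for H3K14ac. The H3K9ac list had the highest share near starts of the 8 lists, and it is also the shortest list. All of its peaks on chromosomes together covered 15769081 bp, which is 0.579% of the genome.

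Peak width and position went together. Of the peaks on chromosomes, 61.1% were exactly 204 bp wide, 1621 were 1000 bp or wider, and the widest, at Rhoc, was 2559 bp. The share near a start was 16.3% for 204-bp peaks, 35.2% for wider peaks under 500 bp, 59.5% from 500 to under 1000 bp and 77.7% (75.6 to 79.7%) for 1000 bp or more. The wide peaks are thus mainly start-site peaks, and the 204-bp peaks lie mainly inside genes and between them. Of the peaks on chromosomes, 20.2% overlapped no other list and 19.7% overlapped all 7. Peaks that overlapped no other list lay near a start in 6.98%, and those that overlapped all 7 in 43.3%. The median width was 204 bp in peaks without an overlap and 498 bp in peaks that overlapped all 7.

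**Figure D2:**
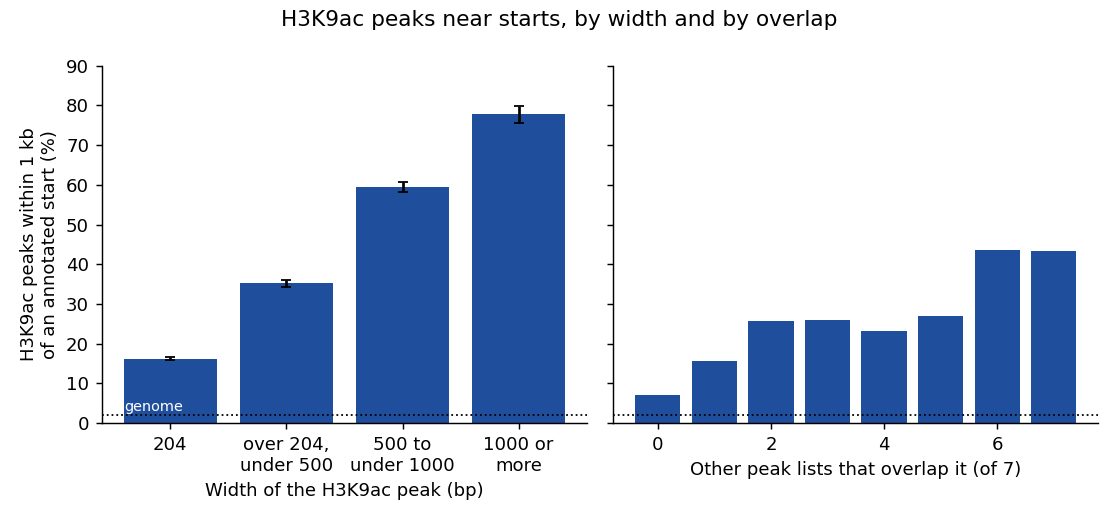
Percent of H3K9ac peaks within 1 kb of an annotated start (y axis) by peak width in bp (left, bars with 95% exact binomial intervals) and by the number of other peak lists that overlap the peak (right, bars), with the share of the genome as a dotted line at 2.12%. The share is 16.3% in 204-bp peaks and 77.7% in peaks of 1000 bp or more.

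Peaks away from starts also held reads. Among wholly unshared peaks, the median was 100 reads in 648 peaks near starts, 86 in 5906 inside genes away from starts and 78 in 2731 outside genes. The quartiles were 36 and 180 reads near starts and 28 and 158 outside genes, so the 3 groups overlapped widely. These peaks are the narrow ones that overlap no other list, and 648 of the 12876 near a start belong to them. The reads of most start-site peaks cannot be placed from the table.

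Around the 21263 start windows of protein-coding genes, coverage by H3K9ac peaks was highest 50 bp after the start, where 33.6% of starts were covered. It stayed above 50% of that height from 300 bp before to 500 bp after the start. In the 1000 bp after the start H3K9ac peaks covered 1.44 times as much as in the 1000 bp before it. This ratio was 1.69 for H3K4me3, 1.42 for H3K23ac, 1.13 for H3K27ac and 0.804 for H2AK5ac, whose coverage was highest 50 bp before the start. The H3K9ac profile thus leaned into the gene like those of H3K4me3 and H3K23ac, and H3K27ac was narrower and nearly even.

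**Figure D3:**
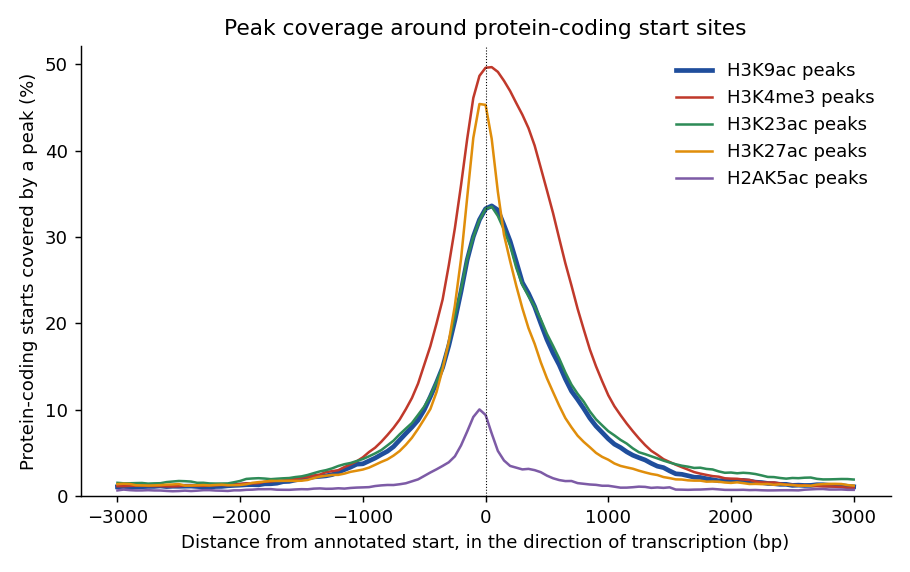
Percent of 21263 protein-coding starts covered by a peak (y axis) at each distance from the start in the direction of transcription (x axis, bp, steps of 50 bp) for the H3K9ac list and 4 others. H3K9ac and H3K23ac lie close together with highest values of 33.6% and 33.5%, below H3K4me3 at 49.6% and H3K27ac at 45.4%.

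H3K9ac at starts followed CpG content. CpG dinucleotides are rare in the mouse genome except at CpG islands, which most broadly used promoters contain. A peak touched the 300-bp start window in 39.8% of protein-coding starts and in 1270 of 11588 starts of other gene types. By the ratio of observed to expected CpG, the share was 3.09% under 0.2, 10.5% from 0.2 to 0.4, 32.2% from 0.4 to 0.6, 59.8% from 0.6 to 0.8, 74.4% from 0.8 to 1.0 and 81.0% over 1.0. H3K4me3 peaks showed the same order, with 4.34% under 0.2 and 92.5% over 1.0. H3K9ac was also present at a larger share of H3K4me3-marked starts where CpG was richer, from 45.6% of those under 0.2 to 87.3% of those over 1.0.

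**Figure D4:**
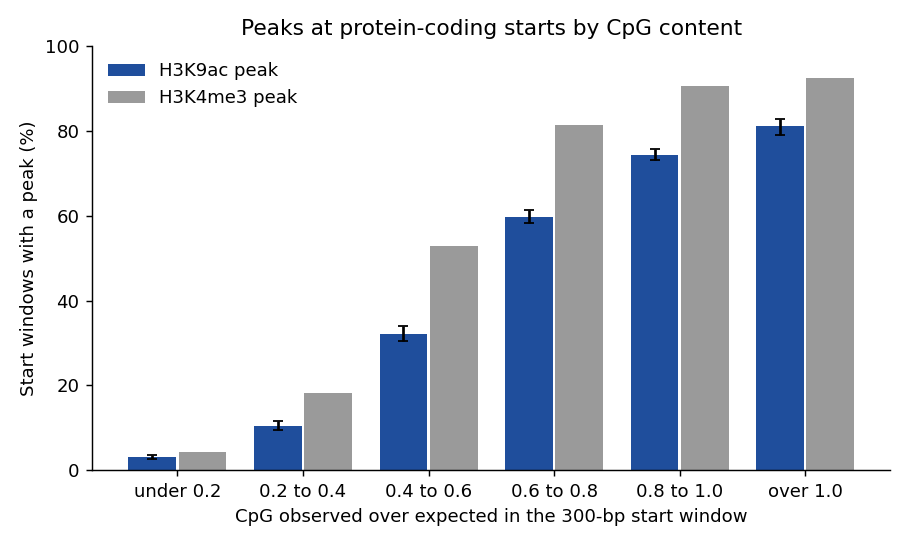
Percent of protein-coding start windows with an H3K9ac peak (blue bars, 95% exact binomial intervals) and with an H3K4me3 peak (grey bars) in 6 classes of the CpG observed-over-expected ratio (x axis). The H3K9ac share is 3.09% in the lowest class and 81.0% in the highest.

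At 8272 starts (38.9%) H3K9ac and H3K4me3 occurred together, at 187 (0.879%) H3K9ac occurred without H3K4me3, and at 2883 (13.6%) H3K4me3 occurred without H3K9ac. Starts with H3K9ac were thus almost always marked by H3K4me3, and the converse held less often. H3K4me3 peaks touched 52.5% of all these starts and H3K9ac peaks 39.8%, so the asymmetry follows from these totals. The H3K9ac list is also the shorter one, and what sets the totals apart was not tested. The starts with H3K4me3 and no H3K9ac peak had H3K27ac in 73.3% and H3K23ac in 37.2%, against 96.8% and 86.7% of the starts with both. Starts within 1 kb of a start on the other strand, which share a promoter region, had H3K9ac in 1435 of 1694 (84.7%), against 35.9% of other starts. With a CpG ratio over 0.6 the shares were 90.5% and 65.9%.

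8 motifs were searched on both strands of the start windows as plain letter strings. A match is a description of the sequence and not a binding site. The ETS core CCGGAAG, of the family that includes the endothelial factors ERG and FLI1 and the broadly expressed GABPA, was found in 11.6% of windows, and H3K9ac was at 71.8% of windows with it and 35.6% without it. Within windows with a CpG ratio over 0.6 these shares were 80.6% and 66.8%. The NRF1 string CGCATGCG was in 2.52% of windows, with H3K9ac at 74.2% with it and 38.9% without it, and 78.7% and 69.0% within CpG-rich windows. The GC box GGGCGG, bound by SP and KLF factors, was in 46.2% of windows, with H3K9ac at 61.5% with it and 21.1% without it, and 71.3% and 64.4% within CpG-rich windows. The TATA box TATAAA, in 12.6% of windows, went the other way, with H3K9ac at 17.2% with it and 43.0% without it, and 60.8% and 70.0% within CpG-rich windows. The CCAAT string was in 38.2% of windows, with H3K9ac at 40.1% with it and 39.6% without it. The cAMP response element TGACGTCA was in 2.23% of windows, with shares of 65.3% and 39.2%. The E-box CACGTG was in 7.84%, with shares of 56.1% and 38.4%. The AP-1 site TGAGTCA was in 4.66%, with shares of 29.4% and 40.3%. Within CpG-rich windows the shares with and without the string were 72.0% and 68.1% for CCAAT, 76.7% and 69.2% for the cAMP response element, 72.1% and 69.2% for the E-box and 68.4% and 69.5% for the AP-1 site. The gap was smaller there than over all windows for every string but CCAAT, for which it was larger.

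H3K9ac peaks lay within 2 kb of an end of 11018 of 21887 protein-coding genes (50.3%) and within 1 kb of an annotated start of 8415 of the 17492 that have one in the start table (48.1%). The gene lists below are read against these 2 shares, and all of them were chosen with earlier results of these data known. The marker lists describe the labelled cell type and are no independent check of it. Of 30 endothelial identity genes, 21 had a peak at their ends (70.0%), with a median of 438 covered bp against 113 bp over all genes. The marker lists of other cells had fewer, with 7 of 20 lung epithelial genes, 4 of 21 leukocyte genes, 2 of 19 mesenchymal genes and 4 of 20 genes of liver, pancreas and muscle.

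Cdh5, the VE-cadherin of endothelial junctions, had 1611 covered bp at its ends and 10 peaks over its span. Pecam1, the junctional receptor CD31, had 1243 bp and 13 peaks, and Kdr had 1261 bp and 8 peaks. Klf4, a shear-responsive factor, led the endothelial list with 2188 bp, followed by Eng, a co-receptor for TGF-beta and BMP9, with 1856 bp and Ecscr, an endothelial surface protein, with 1641 bp. The 9 without a peak at their ends were Aplnr, Cldn5, Erg, Ets1, Flt1, Icam2, Mef2c, Tek and Vwf. Over the whole gene span with 2 kb on both sides 93.3% of the 30 had a peak. Erg had 16 peaks with 5254 bp inside its span and none at its ends. Epithelial Sftpc (surfactant protein C), Abca3 and Pdpn had 810, 722 and 412 bp at their ends, and the mesenchymal genes Acta2 and Gli1 had 204 bp each. The leukocyte genes Cd68, Spi1 and Cd79a had 834, 431 and 204 bp. Epcam, Cdh1 and Nkx2-1 of the epithelium, Ptprc, Cd3e and Csf1r of leukocytes, and Col1a1, Pdgfra and Pdgfrb of mesenchyme had none at their ends. Whether the peaks at genes of other cell types come from other cells in the preparation was not tested.

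Peaks in and around endothelial genes could be read where they were wholly unshared. Egfl7, a factor secreted by endothelium, had one at chr2:26582020-26582223 with 455 H3K9ac reads and 0 IgG reads. Notch1, the arterial signalling receptor, had one at chr2:26488030-26488233 with 207 H3K9ac reads and 0 IgG reads. Pecam1 had 2, at chr11:106669852-106670055 and chr11:106676696-106676899, with 133 and 20 H3K9ac reads and 0 IgG reads at both. The 2 peaks that flank the start of Kdr had no unshared base, and their identifiers held 0 and 7 H3K9ac reads. Reads thus stood behind single peaks of Egfl7, Notch1 and Pecam1, and at the start of Kdr there are peak calls with no placed reads.

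Angiogenic growth genes had peaks at 18 of 20, with a median of 1239.5 bp. Myc had 2306 bp, Plxnd1, the endothelial semaphorin receptor, had 1865 bp, and Angpt2, the ligand of the TIE2 receptor, had 1844 bp. Cxcr4 had none at all, though H3K4me3 peaks covered 1691 bp at its ends. Hif1a, the hypoxia factor, had none at its ends and 1089 bp within 1 kb of an annotated start. Immediate-early genes, which cells induce within minutes of a stimulus or of handling, had peaks at 20 of 20, with a median of 1585 bp. Junb had 2773 bp, Jun 2327 bp and Atf3 2206 bp. All 24 ribosomal and housekeeping genes had peaks, with a median of 1541.5 bp, led by Rpl3 with 2405 bp and Gapdh with 2264 bp. Cell cycle genes had peaks at 21 of 22, with Rrm2 at 1804 bp and the mitotic kinase Bub1 as the one without.

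The cystine, cysteine and glutathione genes had peaks at 21 of 30, with a median of 409.5 bp. Got1, the cytosolic aspartate aminotransferase that also acts on cysteine sulfinate, had 1603 bp. Gpx1, which reduces peroxides with glutathione, had 1600 bp, and Txn1, thioredoxin, had 1425 bp. Slc7a11 had no peak at the outer ends of its gene record and 885 bp within 1 kb of its annotated start, in 8 peaks with 2587 bp over its span. The peak over that start, at chr3:50443484-50443826, had no unshared base, and its identifier held 0 H3K9ac reads. At the start itself there is thus a peak call with no placed reads. The peak at chr3:50443203-50443406, 207 bp from that start, had 67 unshared bases and an identifier with 64 H3K9ac reads. Slc3a2, the heavy chain that xCT pairs with, had 1078 bp at its ends. Cth, which makes cysteine from cystathionine, had none, and H3K4me3 peaks covered 703 bp at its ends. Cdo1, cysteine dioxygenase, had a single 204-bp peak with no unshared base. Genes of the amino acid and oxidative stress response had peaks at 20 of 20, with a median of 1069.5 bp. Ddit4 had 1916 bp, Ddit3 (CHOP) 1805 bp and Nfe2l2 (NRF2) 1574 bp in 1 peak over its start.

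Acetyl-CoA supply genes had peaks at 19 of 20, with a median of 533 bp. Mpc2, a subunit of the mitochondrial pyruvate carrier, had 1610 bp, Hadha of fatty acid oxidation 1260 bp and Cpt1a, the carnitine palmitoyltransferase, 1237 bp. Acly, which makes cytosolic acetyl-CoA from citrate, had 267 bp. Acss1, the mitochondrial acetyl-CoA synthetase, had none at its ends.

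The genes for the machinery of H3K9 acetylation carried H3K9ac peaks themselves. All 25 genes for writer subunits had a peak at their ends, with a median of 918 bp, and 24 of them had one within 1 kb of an annotated start. The exception was Kat2a, the gene for GCN5. Its only peak was 204 bp wide and lay 6667 bp from the start, at chr11:100705597-100705800, where it was wholly unshared with 226 H3K9ac reads and 0 IgG reads. H3K4me3 peaks covered 1639 bp at the ends of Kat2a. Kat2b (PCAF) had 1019 bp at its ends in 3 peaks, whose identifiers held 0, 2 and 0 H3K9ac reads. The first of these peaks, over the start, had 107 unshared bases, and the others had none. Ep300 and Crebbp, the acetyltransferases p300 and CBP, had 1598 and 1522 bp, each in 1 peak. The SAGA deubiquitinase subunit Atxn7l3 had 1900 bp, the most of the list, and the scaffold Trrap 1203 bp. Zzz3 and Yeats2, subunits of ATAC, had 1444 and 789 bp.

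All 13 eraser genes had a peak at their ends, with a median of 1209 bp. The corepressor Ncor1 had 1309 bp. The deacetylases Hdac1, Hdac2 and Hdac3 had 809, 876 and 1295 bp, and the sirtuins Sirt1 and Sirt6 had 737 and 600 bp. Of 13 genes in the reader list, 9 had a peak at their ends. This list also takes in Aff1 and Aff4 of the super elongation complex, which have no YEATS domain or bromodomain. Bptf, a subunit of the NURF remodeller, had 1464 bp, Aff4 of the super elongation complex 1241 bp, and the YEATS proteins Mllt1 and Mllt3 693 and 408 bp. Brd3, Phip, Taf1 and Zmynd8 had none at their ends and between 668 and 1354 bp within 1 kb of an annotated start. Near an annotated start 11 of 12 genes of the reader list had a peak, and Mllt3 was the one without.

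**Figure D5:**
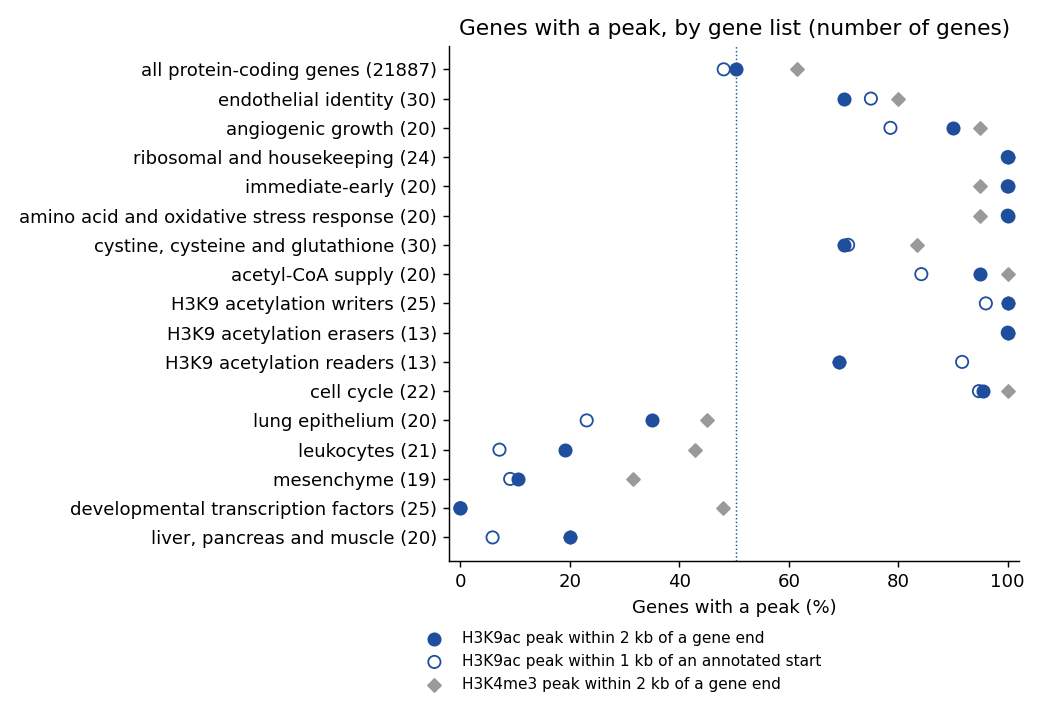
Percent of genes with an H3K9ac peak within 2 kb of a gene end (filled circles), with one within 1 kb of an annotated start (open circles, genes in the start table only) and with an H3K4me3 peak within 2 kb of a gene end (grey diamonds), for all protein-coding genes and 16 lists, with the number of genes in brackets. The dotted line is the share of all genes at 50.3%, and the developmental transcription factors lie at 0% for H3K9ac and 48.0% for H3K4me3.

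The list of developmental transcription factors had no H3K9ac peak at the ends of any of its 25 genes, with H3K4me3 at 12 of 25. These chosen genes do not stand for all such factors. Of 39 Hox genes 20 had an H3K9ac peak at their ends (51.3%), near the 50.3% of all protein-coding genes, with a median of 3 covered bp. Foxc1, which is not in the list, had 2822 bp. Over the whole gene span with 2 kb on both sides 8.0% of the 25 had an H3K9ac peak. Of the 25 genes, Cdx2 had 157 bp and Dlx1 489 bp of H3K4me3 peaks at their ends, and neither had an H3K9ac peak over its span. The olfactory receptors, which are used mainly in olfactory neurons, had a peak at 11 of 1110 genes (0.991%) and keratins at 6 of 53 (11.3%). At the other end, cytosolic ribosomal protein genes had a peak at 79 of 84 (94.0%), Nduf genes of respiratory complex I at 45 of 49 (91.8%) and proteasome genes at 35 of 40 (87.5%). Long noncoding RNA genes had one at 24.2% and pseudogenes at 5.38%. Of 408 tRNA genes, 58.8% had one at their ends.

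The 8 widest peaks at gene ends were between 2289 and 2559 bp. Rhoc, a small GTPase, had the 2559-bp peak at chr3:104788448-104791006. Dusp4, a MAP kinase phosphatase, had one of 2520 bp at chr8:34806792-34809311, and Kmt2e, a SET and PHD finger protein, one of 2472 bp at chr5:23432524-23434995. Cdk13, a transcriptional kinase, had one of 2423 bp, and Skil, a repressor of TGF-beta signalling, one of 2415 bp. A peak of 2381 bp was shared by Srgap2 and Fam72a, and one of 2380 bp by Igsf9 and Tagln2, so these cannot be given to 1 gene. Pcbp1, an RNA-binding protein with a single exon, had one of 2289 bp. Over all windows at gene ends, Klf13 had the most covered bases with 3287 bp in 5 peaks.

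Over whole gene spans Tcf4, a class I helix-loop-helix factor on chromosome 18, had the most, with 81 peaks and 27524 bp over a gene of 344539 bp. Aopep followed with 49 peaks and 14994 bp, and Fndc3b with 39 peaks and 13065 bp. Among identifiers whose H3K9ac peak had at least 100 unshared bases, the one with the most H3K9ac reads held a peak inside Tnrc18, at chr5:142820328-142821156. It had 1885 reads (1158 CPM) against 0 IgG reads, at least 141-fold higher than the IgG floor. A peak inside Pde4b, a cAMP phosphodiesterase, at chr4:102572577-102572992 had 1263 H3K9ac reads and 0 IgG reads. The 204-bp peak at chr17:39846623-39846826, in the ribosomal RNA record Rn18s-rs5, had 1322 H3K9ac reads and 23 IgG reads, a 12.9-fold ratio in CPM. Ribosomal RNA genes occur in many copies, so reads there cannot be given to 1 place.

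H3K9ac peaks followed gene density along the genome. Autosomes had between 14.2 peaks per Mb (chromosome 14) and 28.4 (chromosome 11), and across the 20 chromosomes without Y peaks and protein-coding genes per Mb had a Pearson correlation of 0.762 and a Spearman correlation of 0.848, as a description of points that share 1 library. The X chromosome had 5.78 peaks per Mb and Y 0.407, against 18.9 over the autosomes, so X had 0.305 of the autosomal density. This ratio lay between 0.240 (H2AK5ac) and 0.399 (H3K14ac) in the other 7 lists, so a low density on X was not particular to H3K9ac.

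Peaks of the other lists lay over most H3K9ac peaks. H3K18ac and H4K8ac peaks overlapped 64.6% of H3K9ac peaks each, H3K27ac 63.1%, H3K14ac 60.7%, H3K4me3 48.2% and H2AK5ac 36.2%. H3K23ac peaks overlapped 23320 of the 47600. As a share of the other list, H3K9ac peaks overlapped 36.4% of H3K4me3 peaks, 28.1% of H3K27ac, 28.1% of H2AK5ac, 19.6% of H3K18ac, 19.2% of H4K8ac, 5.63% of H3K14ac and 23865 of 88310 H3K23ac peaks. H3K4me3 overlapped 87.4% of H3K9ac peaks near a start and 33.1% of those away from one, the widest gap of the 7 lists. H3K27ac overlapped 79.3% near a start and 56.7% away from one, and H2AK5ac 37.2% and 35.8%. The lists differ in length and covered bases, and these overlaps were not compared with chance.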

How the data were processed

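The deposited table held raw read counts per identifier for 9 libraries. Per the file headers, the authors counted with featureCounts 2.0.6 in paired-end mode without strand, and reads over more than 1 identifier were discarded. The submitters' processing notes also name FastQC, MultiQC, Trim Galore, STAR, MACS2 and DESeq2, and the builds mm10 and GRCm38.p6. How reads were aligned, peaks were called, IgG entered the calling and duplicates were treated is not given in the sources used here.

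The 8 peak lists were separated by genome order, absence of overlap and width, since no label names them. On 14893 simulated regions 99.9% were returned to their list, but the simulated lists were shorter than the real ones and lay at random places. In the data, order alone put 435 regions of the H3K9ac list (0.889%) in another list. With order and width, 5 identifiers broke the rules of the separation. Counts were divided by library totals as CPM, and a non-negative least squares fit gave CPM per kb of unshared bases in each list. The ratio to IgG used a prior count of 2 and a minimum of 10 reads, called at 2-fold. Places and sequences came from RefSeq tables of GRCm38.p6, in which 17492 of 21887 protein-coding genes had a start. Start entries of chromosome 18 were not used here. Genes named are the 3 with the most covered bases of each list, its members without a peak where 3 or fewer lack one, the acetylation machinery, the widest peaks and fixed examples, and some others chosen after their values were seen. Some genes that this rule names are not reported here. Members and lists were chosen with earlier results of these data known. Python 3.11.15, scipy 1.17.1 and edgeR 4.0.16 (TMM scaling only) were used. With 1 library per target no test was made, and intervals (exact binomial or Poisson) cover counting error only.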

Additional observations from a re-analysis of the deposited data

How the results depend on the processing

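The number of identifiers with H3K9ac at least 2-fold over IgG stayed within 1.5 times of the value given under every alternative, between 14654 and 20599. The median log2 ratio, 4.21, was 4.77 with TMM scaling, 6.15 with a prior count of 0.5 and 3.00 with a prior count of 5, so its size depends on the prior count. The density of 285 CPM per kb lay between 283 and 286 when identifiers of 1 chromosome at a time were left out. It was 0 in identifiers where only the H3K9ac peak has unshared bases, which are 2 with 132 bases. It was 319 as counted directly, with the reads of all regions of an identifier, and 289 without peaks in the stretches with few H3K14ac reads. The share of peaks at gene ends, 35.25% with windows of 2 kb, was 28.5% with 1 kb, 44.9% with 5 kb, 52.1% in peaks wider than 204 bp, 28.0% within 1 kb of annotated starts and 17.5% in peaks that overlap no other list. The share of genes with a peak was 46.5% with 1 kb, 56.6% with 5 kb, 59.2% over the span, 39.8% with peaks wider than 204 bp and 48.1% by annotated start. With 50% of the H3K9ac peak shared, overlaps were 15.9% for H2AK5ac, 42.3% for H3K14ac, 51.0% for H3K18ac, 37.5% for H3K23ac, 50.3% for H3K27ac, 40.6% for H3K4me3 and 48.8% for H4K8ac. Of 48 alternative shares for gene lists 42 stayed inside the wide counting interval of the main share. Over the span, endothelial genes reached 93.3%, acetyl-CoA genes and readers 100%, leukocyte genes 33.3% and mesenchymal genes 21.1%. With peaks wider than 204 bp the share was 15% for epithelium, 9.52% for leukocytes, 0% for mesenchyme and 5.0% for liver, pancreas and muscle. The direct density, annotated starts, low-read stretches and peaks without overlap were chosen after seeing the data. No paired analysis was possible because each target has 1 library. No replicate error exists, 21.1% of the bases of the H3K9ac peaks are unshared, and the reads of the rest cannot be placed.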

Other observations

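Transfer RNA genes lie in short clusters that RNA polymerase III transcribes. H3K9ac peaks lay within 500 bp of 197 of 408 tRNA genes (48.3%). Among the 318 away from protein-coding genes the share was 42.5% for H3K9ac, 60.4% for H3K4me3, 53.8% for H4K8ac and 50.6% for H3K18ac. It was 48.1% for H3K14ac, 42.8% for H3K27ac, 34.0% for H3K23ac and 7.86% for H2AK5ac. The lists cover unlike parts of the autosomes, with 0.628% for H3K9ac, 0.814% for H3K4me3, 3.77% for H3K14ac and 0.431% for H2AK5ac. These shares are therefore no ranking of the marks, and the share at other places of the same size was not measured. Of 397 zinc finger genes named Zfp, 258 had an H3K9ac peak at their ends (65.0%), against 50.3% of all protein-coding genes. Of 39 Hox genes 20 had one (51.3%), which is near the share of all genes, with a median of 3 covered bp.

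The stretches with few H3K14ac reads were low in most libraries. Of wholly unshared peaks inside them, 85.0% had 0 reads in the H3K9ac list and library, 86.2% in H2AK5ac, 84.9% in H3K23ac, 73.8% in H4K8ac, 64.6% in H3K4me3, 62.6% in H3K18ac and 12 of 120 in H3K27ac. They make up 2.92% of the genome. The cause was not tested.

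At the 187 starts with H3K9ac and no H3K4me3 peak, the median CpG ratio was 0.333, against 0.824 at starts with both. H3K27ac was at 40.1% of them and H3K23ac at 27.8%.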
